A study of Mus musculus with 8 samples.

Results

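The genes of the cytosolic ribosomal proteins were followed in thymic natural killer T (NKT) cells of WT and Ezh2-KO mice, sorted into 3 subsets. A gene was a member if it was protein-coding and its symbol began with Rpl or Rps and a digit, or was Rplp0, Rplp1, Rplp2 or Rpsa. The 10 genes of the Rps6k kinase family and 35 rows with ribosomal pseudogene names were left out. The rule took 89 of the 27179 genes in the table and used symbols and gene types, not measured values. By symbol, 46 of the members encode large subunit proteins and 31 encode small subunit proteins. A further 8 carry paralog symbols, such as Rpl39l and Rpl32l, and 3 carry retrogene symbols (Rpl37rt, Rps23rg1, Rps27rt). The remaining 1, Rps19bp1, encodes a protein that binds the product of Rps19. Gene structure was not used for this grouping, so a gene grouped as a paralog may also be a retrogene. The filter on low counts left 86 members among 13794 genes tested, and Rpl39, Rpl10l and Rpl3l did not pass it.

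RNA of sorted cells was sequenced (TruSeq RNA libraries) and reads were counted per gene. All 8 libraries came from C57BL/6 mice. CD44+ NK1.1- cells gave 2 WT and 2 Ezh2-KO libraries, described as biological replicates, and CD44+ NK1.1+ and CD44- NK1.1- cells gave 1 library of each genotype. Ezh2 encodes the histone H3 lysine 27 methyltransferase of the Polycomb repressive complex. The sources used here do not give how the Ezh2 allele was deleted, nor the age of the mice. The subsets are commonly ordered by maturation from CD44- NK1.1- through CD44+ NK1.1- to CD44+ NK1.1+ cells. In bulk RNA, fewer cells that express a gene and less of its RNA per cell cannot be told apart.

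A ribosome joins a small subunit, which decodes messenger RNA, to a large subunit, which forms the peptide bond, and each is built of ribosomal RNA and many small proteins. The mRNAs of many of these proteins begin with a C and a run of C and T, the terminal oligopyrimidine motif, through which growth signalling by mTOR and Larp1 controls their translation. Most mammalian ribosomal protein genes have processed pseudogenes, copies of the spliced mRNA that were put back into the genome.

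Libraries held 20308745 to 22995090 counts. Ezh2 stood at 113 and 136 CPM (counts-per-million after TMM scaling) in the WT and 83.3 and 77.9 CPM in the Ezh2-KO CD44+ NK1.1- libraries. Both knockout values were lower (log2 fold change -0.63, edgeR adjusted p = 0.0407), and the Ezh2-KO library was also below the WT library in CD44+ NK1.1+ (40.4 against 57.2 CPM) and CD44- NK1.1- cells (78.4 against 109 CPM). The 8 NKT and T cell markers summed to 2341 to 4928 CPM. The 5 B cell, 5 dendritic and 5 thymic epithelial markers each summed to at most 10.5 CPM, and the 6 myeloid markers to 3.11 to 16.2 CPM. WT CD44+ NK1.1- replicate 1 stood apart in 16 immediate early genes, which summed to 3957 CPM there and to 802 to 1683 CPM elsewhere. Its 6 immature thymocyte markers summed to 73.7 CPM, against 13.4 to 57.7 CPM elsewhere. The 4 erythroid markers, mostly globins, summed to 19.2, 58.1 and 20.6 CPM in 3 Ezh2-KO libraries, to 0.450 CPM in Ezh2-KO CD44+ NK1.1- replicate 2 and to 0.764 to 1.46 CPM in WT libraries. The part of these differences in the results below was not tested beyond the values given without single libraries.

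The start of the annotated transcript was read for the 69 members that have an entry in the RefSeq promoter table (GRCm38.p6, the mm10 assembly). The aim was to look for a pyrimidine run there. The search was for a C followed by at least 4 bases that were C or T, beginning within 5 bases of the start on the gene's strand. Such a run lay at an annotated start of 32 of 69 members (46.4%), with a median length of 8 bases. The same search found a run in 23.8% of the tested genes that are no members and in 21.2% of the 27025 genes in the promoter table. Each stretch covers 10 bases before the start and 20 from it on, and capitals mark the run. The genes were chosen to show long runs (Rpl15, Rpl27a), the phosphoprotein Rps6, a parent and its retrogene (Rps27, Rps27rt), and genes whose values are described later (Rpl14, Rps26, Rps27l, Rpl4, Rplp0, Rpl39l).
Rpl15: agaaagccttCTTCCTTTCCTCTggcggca
Rpl27a: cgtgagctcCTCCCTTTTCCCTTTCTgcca
Rps6: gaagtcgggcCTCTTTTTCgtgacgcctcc
Rps27: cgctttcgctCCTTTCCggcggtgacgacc
Rps27rt: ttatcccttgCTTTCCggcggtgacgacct
Rpl14: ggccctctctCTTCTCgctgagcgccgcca
Rps26: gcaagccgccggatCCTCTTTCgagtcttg
Rps27l: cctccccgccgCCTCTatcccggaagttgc
Rpl4: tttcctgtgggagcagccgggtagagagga
Rplp0: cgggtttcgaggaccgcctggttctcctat
Rpl39l: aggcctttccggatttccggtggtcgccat
They lie at chr14:18270967-18270996 (Rpl15, minus strand), chr7:109519185-109519214 (Rpl27a, plus), chr4:86857348-86857377 (Rps6, minus), chr3:90213629-90213658 (Rps27, minus), chr9:114982720-114982749 (Rps27rt, minus), chr9:120571507-120571536 (Rpl14, plus), chr10:128626487-128626516 (Rps26, minus), chr9:66946076-66946105 (Rps27l, plus, the first of its annotated starts), chr9:64173377-64173406 (Rpl4, plus), chr5:115559457-115559486 (Rplp0, plus) and chr16:10170218-10170247 (Rpl39l, plus). The windows of Rps27 and Rps27rt share 19 bases in a row out of 30. For Rpl4, Rplp0 and Rpl39l no run began within 5 bases of the start, which says nothing of the rest of the stretch printed.

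The search read annotated starts only, so members without a run there are not shown to lack the motif. Members with a run at an annotated start were measured at a median of 460 CPM per kilobase and those without at 244 CPM per kilobase. Their median log2 fold changes differed little. Between Ezh2-KO and WT CD44+ NK1.1- cells the medians were 0.11 with a run (31 members tested) and 0.12 without (35 members). Between CD44+ NK1.1+ and CD44- NK1.1- cells they were -0.09 and -0.10.

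Among the 77 large and small subunit genes, levels per length ran from 0.408 CPM per kilobase (Rpl39, mean of 8 libraries) to 3895 (Rplp1), with a median of 421. The median of all genes tested was 9.07 CPM per kilobase, and 74 of the 77 stood above it. The highest were Rplp1, whose product is one of the acidic proteins of the stalk that recruits elongation factors, then Rpl8 (2869 CPM per kilobase), Rps15 (2370), and, a little lower, Rpl32 (2233) and Rpl41 (2199). The median was 388 CPM per kilobase for the large subunit and 612 for the small subunit. Of these levels, 12 of the 77 genes stood under 50 CPM per kilobase, among them Rpl13 (4.21), Rpl38 (8.69), Rps13 (15.3), Rpl17 (22.1) and Rpl5 (23.3).

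**Figure D1:**
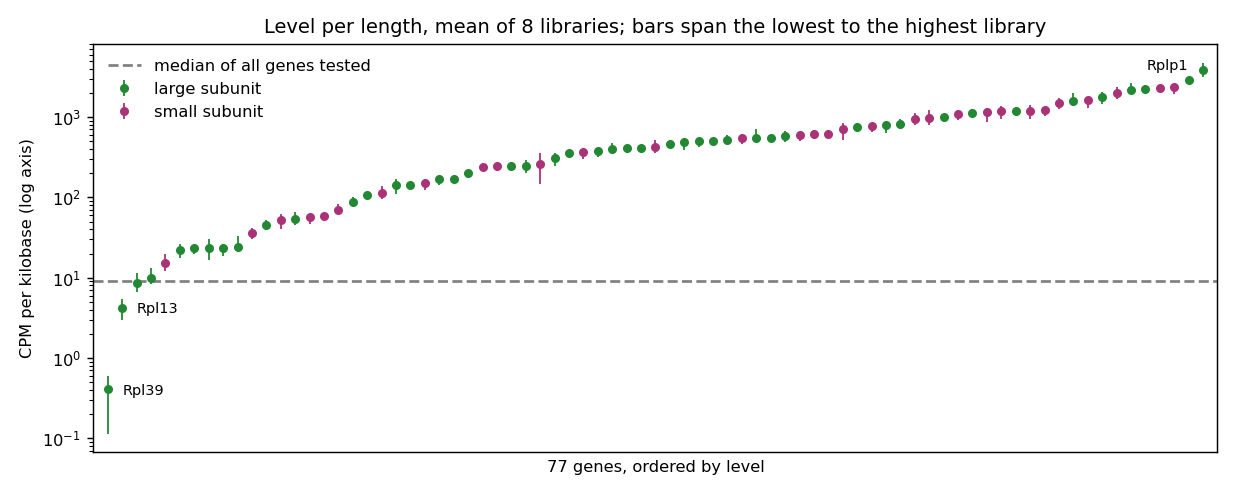
Level of the 77 large and small subunit genes in CPM per kilobase of gene length (log axis), ordered by the mean of 8 libraries. Points are means and bars span the lowest to the highest library; Rpl39 (0.408) and Rpl13 (4.21) lie lowest and Rplp1 (3895) highest, and the dashed line is the median of all genes tested (9.07).

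Several of the low genes had most of the counts of their name in rows of copies. For 19 members the table also held rows of pseudogenes, retrogenes or a like-named copy (38 rows in all), and in 12 of them the parent row held under 50% of the family's counts. Rpl17 held 1.70% (2959 counts over 8 libraries) beside 136748 counts in Rpl17-ps10. Rpl13 held 1.91% (566 counts) beside 29045 in Rpl13-ps6. For Rpl37, the parent held 2.56% (3552 counts) beside 135058 in the retrogene Rpl37rt. Rps27a, which encodes a fusion of ubiquitin with a small subunit protein, held 8.87%, Rpl34 held 10.3% and Rps27 held 17.7%. The sources used here do not say how reads that fit several places were counted, so the level of a parent and of its copies cannot be told apart, and differences in level between members carry that limit. Pseudogenes named without their parent were not searched for. With each family summed before the fit, an alternative chosen after seeing the data, the number of calls was the same in every comparison.

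**Figure D2:**
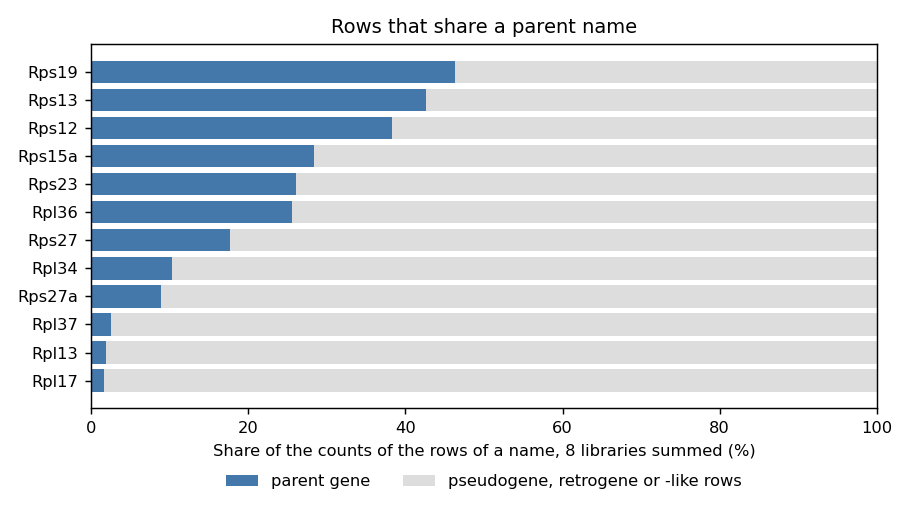
Share of a family's counts (8 libraries summed, %) in the row of the parent gene (blue) and in rows of its pseudogenes, retrogenes or like-named copies (grey), for the 12 families in which the parent row held under 50%. Rpl17, Rpl13 and Rpl37 hold 1.70%, 1.91% and 2.56% in the parent row, and Rps19 holds 46.3%.

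Together the 89 members took 3.90% to 5.21% of a library's counts. The share was 4.37% and 3.90% in the WT CD44+ NK1.1- libraries (4.13% ± 0.333, SD, n = 2) and 4.50% and 5.02% in the Ezh2-KO ones (4.76% ± 0.367, SD, n = 2). In CD44+ NK1.1+ cells it was 3.93% in the WT and 4.29% in the Ezh2-KO library. In CD44- NK1.1- cells it was 4.76% in the WT and 5.21% in the Ezh2-KO library. The Ezh2-KO library was thus the higher in each subset, and in each genotype the share was lower in CD44+ NK1.1+ than in CD44- NK1.1- cells. The pooled SD between replicates was 0.351 percentage points, while the 95% Wilson interval for counting error was at most 0.0191 percentage points wide. Rps3, Rpsa, Rpl8, Rplp0 and Rpl4 together held 28.9% of the members' counts.

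The balance of the subunits differed between libraries by a small amount. Large subunit genes held 1.25 times the counts of small subunit genes in both WT CD44+ NK1.1- libraries, and 1.24 and 1.20 times in the Ezh2-KO ones. In CD44- NK1.1- cells the ratio was 1.24 in both genotypes. In CD44+ NK1.1+ cells it was 1.18 in the WT and 1.15 in the Ezh2-KO library, the lowest values of each genotype. This ratio was not tested. CD44+ NK1.1+ cells had 1 library of each genotype, and the Ezh2-KO CD44+ NK1.1- replicates themselves differed (1.24 and 1.20).

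**Figure D3:**
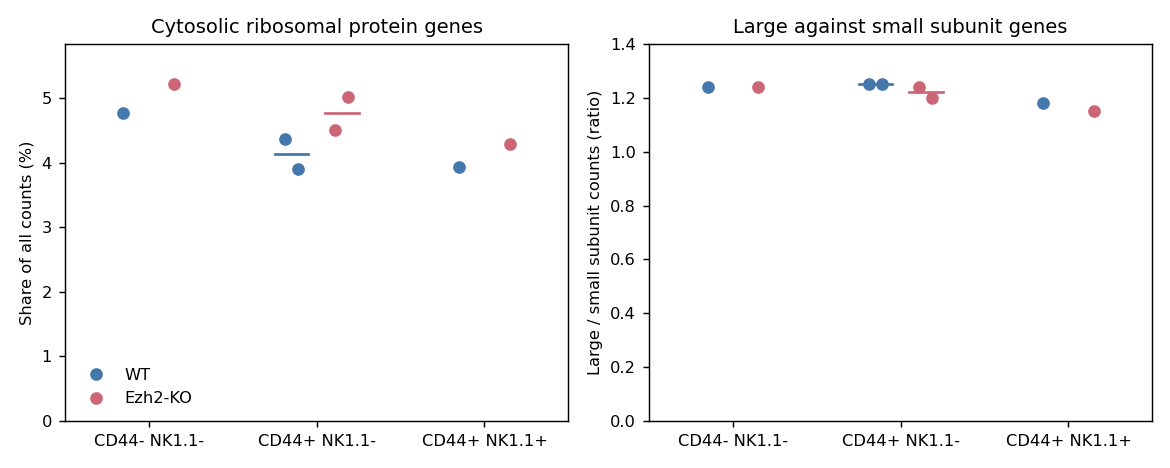
Left, share of all counts in the 89 members (%), by subset; right, counts of the 46 large over the 31 small subunit genes. Each point is a library and bars mark means of 2 replicates; the share runs from 3.90% to 5.21%, and the ratio is lowest in the CD44+ NK1.1+ libraries (1.18 and 1.15).

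Replicates of a genotype moved the members as a block. In WT CD44+ NK1.1- cells, 82 of 86 members were lower in replicate 2 than in replicate 1, with a median log2 difference of -0.18. Among the Ezh2-KO replicates of that subset, 79 of 86 members were higher in replicate 2, with a median of 0.16. Over all genes the medians of these differences were -0.01 and -0.02. Signs shared by many members are therefore not separate observations, and a shift of the whole group of this size occurs between replicates.

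Between Ezh2-KO and WT CD44+ NK1.1- cells, 1 of the 86 members passed the test, Rpl39l, which was higher in the knockout. Over all genes tested, 4.94% passed at an adjusted p under 0.05, and 3.78% passed and were higher. The members' log2 fold changes had a median of 0.12, against -0.01 over all genes, with 73 above and 13 below 0. That median is no larger than the difference between replicates of 1 genotype, and it was 0.23 without WT replicate 1, 0.01 without WT replicate 2, 0.20 without Ezh2-KO replicate 1 and 0.04 without Ezh2-KO replicate 2. Small subunit genes had a median of 0.15 and large subunit genes of 0.09. Of the members, 77.9% lay within 0.2 of 0, against 51.7% of all genes. Genes of a like level were not compared, and 74 of the 77 subunit genes stood above the median level of all genes tested. At an unadjusted p under 0.05 there were 6 of 86 members, beside 2853 of 13794 genes tested. DESeq2 called 0 members and 4.73% of all genes. The count rested on single libraries: it was 46, all higher, without WT replicate 1, when 27.3% of all genes passed, and 14 (8 higher and 6 lower) without WT replicate 2, when 42.0% passed. Without Ezh2-KO replicate 1 or replicate 2 it was 0 (0.733% and 0.785% of all genes passed).

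In 29 of the 86 members (33.7%) both Ezh2-KO CD44+ NK1.1- libraries lay above both WT libraries, against 26.5% of all genes. In none did both lie below both WT libraries, against 25.8% of all genes. Over all 3 subsets the Ezh2-KO value, or the mean of replicates, was above the WT value in 56 members (65.1%), against 22.9% of all genes. Since the members move together from library to library, these counts are a description and no separate support.

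The stalk and Rpsa show the size of the values. Rplp0, the protein that anchors the stalk to the large subunit, stood at 2271 and 2115 CPM in WT and at 2624 and 2799 CPM in Ezh2-KO CD44+ NK1.1- cells. The pairs did not overlap, but the difference did not pass the test (log2 fold change 0.31, SE 0.10, adjusted p = 0.144). Rplp1 stood at 1629 and 1455 CPM in WT and at 1731 and 1956 CPM in Ezh2-KO cells (log2 fold change 0.26, SE 0.11, adjusted p = 0.259). Its partner Rplp2 stood at 372 and 327 CPM in WT and at 311 and 359 CPM in Ezh2-KO cells, pairs that overlap, with a log2 fold change of -0.06. Rpsa, a small subunit protein also known as the laminin receptor precursor, stood at 2505 and 2325 CPM in WT and at 2864 and 2980 CPM in Ezh2-KO cells (log2 fold change 0.27, SE 0.09, adjusted p = 0.173). The largest value for a core gene was 0.35 for Rps14 (adjusted p = 0.209), and the lowest was -0.23 for Rpl9, at 6.07 to 9.51 CPM.

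Over all subsets, with subset as an added term, Rpl39l was again the 1 member that passed of 86, while 11.3% of all genes passed and 6.43% passed and were higher. The median log2 fold change of the members was 0.11, against -0.01 over all genes, with 77 above and 9 below 0. It was 0.06 without WT CD44+ NK1.1- replicate 2 and 0.07 without Ezh2-KO CD44+ NK1.1- replicate 2. At an unadjusted p under 0.05 there were 21 of 86 members, beside 3707 of 13794 genes tested. The members' share was thus not above that of all genes. The nearest to the threshold were Rps3a1 (0.22, adjusted p = 0.0542), Rplp0 (0.22, adjusted p = 0.0580) and Rps14 (0.28, adjusted p = 0.0681). DESeq2 called 5 members (13.3% of all genes) and limma-voom 2 (11.4%), all higher. The count was 17 without WT CD44+ NK1.1- replicate 1, when 20.4% of all genes passed, and 0 without Ezh2-KO CD44+ NK1.1- replicate 1, when 4.2% passed. In the subsets with 1 library of each genotype the median of the members was 0.09 in CD44+ NK1.1+ and 0.09 in CD44- NK1.1- cells, differences with no replicate check.

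**Figure D4:**
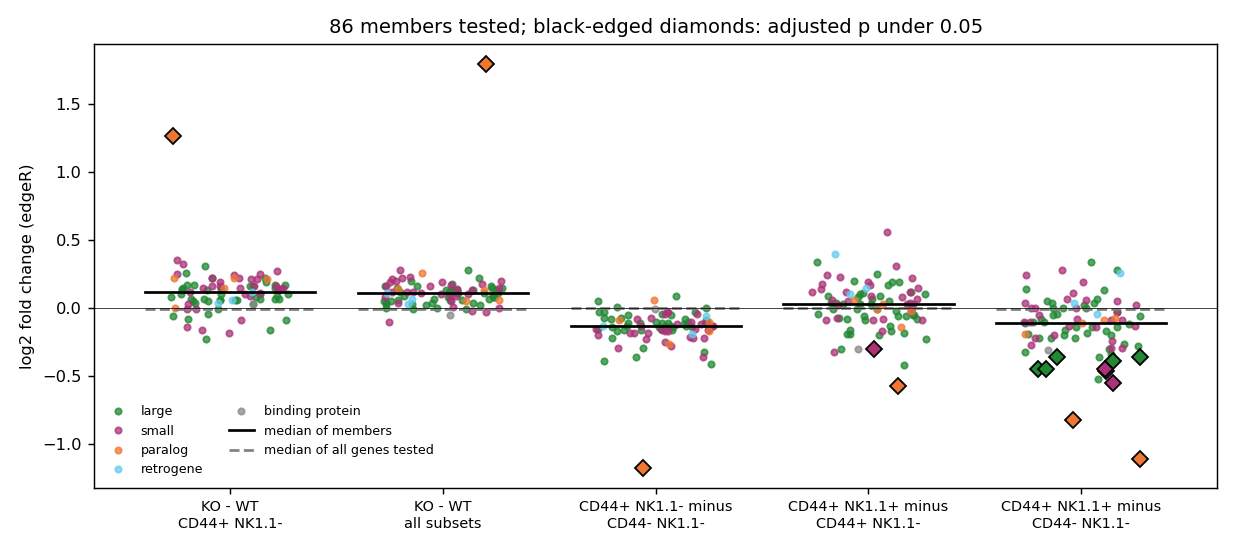
log2 fold change of each of the 86 members tested, in 5 comparisons; points are coloured by role, and black-edged diamonds passed the test. Solid lines are the medians of the members (0.12, 0.11, -0.13, 0.03 and -0.11) and dashed lines the medians of all genes tested; Rpl39l is the diamond at 1.26 and 1.79.

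Rpl39l (GeneID 68172, chr16:10170197-10174911) encodes a paralog of Rpl39 that is best known from the testis. It was counted 37 and 50 times in the WT and 104 and 93 times in the Ezh2-KO CD44+ NK1.1- libraries, or 1.67 and 2.15 CPM against 4.96 and 4.19 CPM. In CD44+ NK1.1+ cells it stood at 1.98 CPM in WT and 4.83 CPM in Ezh2-KO. In CD44- NK1.1- cells it stood at 2.20 CPM in WT (49 counts) and 20.1 CPM in Ezh2-KO (439 counts). All 4 Ezh2-KO libraries lay above all 4 WT libraries, and the Ezh2-KO CD44- NK1.1- library lay far above the other three. Means in CD44+ NK1.1- cells were 1.91 ± 0.341 CPM in WT and 4.57 ± 0.549 CPM in Ezh2-KO (SD, n = 2 each).

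Rpl39l rose in the knockout by a log2 fold change of 1.26 in CD44+ NK1.1- cells (SE 0.22, edgeR adjusted p = 0.0320) and of 1.79 over all subsets (SE 0.35, adjusted p = 0.0187). The single libraries gave 1.28 in CD44+ NK1.1+ and 3.19 in CD44- NK1.1- cells. The difference of the genotype effect between CD44- NK1.1- and CD44+ NK1.1- cells was 1.93 (SE 0.37) and did not pass the test (adjusted p = 0.311). Across 14 alternatives the value in CD44+ NK1.1- cells ran from 1.08 to 1.45, and the call was lost with DESeq2 (adjusted p = 0.0966) and without either Ezh2-KO replicate (0.313 without replicate 1, 0.186 without replicate 2). Over all subsets it was 1.27 (adjusted p = 0.00971) without the Ezh2-KO CD44- NK1.1- library, and the call was lost without Ezh2-KO CD44+ NK1.1- replicate 1 (1.83, adjusted p = 0.0634). The erythroid markers summed to 19.2 and 0.450 CPM in the Ezh2-KO CD44+ NK1.1- replicates, where Rpl39l was 4.96 and 4.19 CPM. They summed to 58.1 CPM in the Ezh2-KO CD44+ NK1.1+ library, where Rpl39l was 4.83 CPM. In the Ezh2-KO CD44- NK1.1- library they summed to 20.6 CPM and Rpl39l was 20.1 CPM. Whether these markers and Rpl39l are related was not tested.

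The parent Rpl39 was counted 1 to 5 times in each library, between 0.0451 and 0.239 CPM, so no difference could be measured at this depth. Per length, Rpl39l exceeded Rpl39 in all 8 libraries, and whether reads of Rpl39 were lost to copies cannot be told apart from low expression. Rpl10l, a paralog of Rpl10 known from the testis, was counted 0 times in all 8 libraries, which allows up to 0.131 to 0.148 CPM. Rpl3l, the paralog of Rpl3 known from muscle, was counted once in 3 libraries and not in the others. Their parents stood at 102 to 124 CPM (Rpl10) and 234 to 299 CPM (Rpl3).

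The other paralogs were measured beside their parents. Rpl22, whose loss is known to block the development of alpha beta T cells, stood at 434 to 563 CPM, and its paralog Rpl22l1 at 39.0 to 54.3 CPM. Per length, Rpl22l1 held between 0.368 and 0.470 of the level of Rpl22, with both ends in the 1-library subsets. Rpl22l1 did not pass the genotype test over all subsets (log2 fold change 0.26, SE 0.08, adjusted p = 0.0712). Rpl36al held 6.19 to 10.2 times the level of Rpl36a per length, and Rpl7l1 held 0.0309 to 0.0442 of that of Rpl7. Rps27l varied most, from 0.242 of Rps27 in WT CD44+ NK1.1+ to 0.774 in Ezh2-KO CD44+ NK1.1- replicate 1, where Rps27 itself was at its lowest, 84.7 CPM against 112 to 203 CPM elsewhere.

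Between CD44+ NK1.1- and CD44- NK1.1- cells, taken as the mean of both genotypes, 1 of 86 members passed the test, Rpl39l, which was lower. Over all genes 2.66% passed, and 1.07% passed and were lower. The Rpl39l value of -1.17 (SE 0.18, adjusted p = 0.0310) averages -0.20 in WT and -2.14 in Ezh2-KO, and it rests on the single Ezh2-KO CD44- NK1.1- library. Of the members, 81 of 86 had values below 0, with a median of -0.13 against 0.00 over all genes, and all 31 small subunit genes were below 0. The lowest core genes were Rpl4 (-0.41, adjusted p = 0.0709) and Rpl14 (-0.39, adjusted p = 0.0792). There were 8 of 86 members at an unadjusted p under 0.05, beside 2124 of 13794 genes tested. DESeq2 called 3 of 86 members and 3.40% of all genes. Rpl39l was not among the 3 members (DESeq2 adjusted p = 0.0688). The median was -0.08 without WT CD44+ NK1.1- replicate 2. The count was 56 without WT CD44+ NK1.1- replicate 1, when 25.2% of all genes passed, 17 without WT replicate 2, when 31.9% passed, and 0 without either Ezh2-KO replicate, when 0.603% and 0.654% passed.

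Between CD44+ NK1.1+ and CD44+ NK1.1- cells, 2 members passed, Rps27l and Rps26, and both were lower. Over all genes 32.5% passed, and 16.1% passed and were lower. The members had a median log2 fold change of 0.03 (0.00 over all genes), with 48 above and 38 below 0. Of them, 82.6% lay within 0.2 of 0, against 33.1% of all genes. Here too, genes of a like level were not compared. The sign of the median depends on the scaling and on single libraries. It was -0.02 without WT CD44+ NK1.1- replicate 2 and -0.01 without Ezh2-KO CD44+ NK1.1- replicate 1. With library sizes alone all genes had a median of -0.13 and the members had a median of -0.10. There, 10 of 86 members passed, all lower, and 35.0% of all genes passed. DESeq2 called 5, of them 2 higher and 3 lower, and 23.7% of all genes. The count was 39 (27 higher, 12 lower) without WT CD44+ NK1.1- replicate 1, when 62.6% of all genes passed, and 21 without WT replicate 2, when 57.2% passed. It was 0 without Ezh2-KO replicate 1 (11.8% of all genes) and 1, which was higher, without Ezh2-KO replicate 2 (11.0%). It was also 0 in WT libraries only (10.3% of all genes) and 0 in Ezh2-KO libraries only (18.6%).

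Rps26 encodes a small subunit protein that sits where messenger RNA leaves the ribosome. It stood at 428 and 414 CPM in WT and 434 and 490 CPM in Ezh2-KO CD44+ NK1.1- cells. In CD44+ NK1.1+ cells it stood at 352 CPM in WT and 365 CPM in Ezh2-KO, and in CD44- NK1.1- cells at 496 and 555 CPM. The order was thus CD44- NK1.1- above CD44+ NK1.1- above CD44+ NK1.1+ cells in both genotypes, with no overlap between subsets within a genotype. Rps26 fell by 0.30 between CD44+ NK1.1- and CD44+ NK1.1+ cells (SE 0.09, adjusted p = 0.0448) and by 0.55 on the log2 scale from CD44- NK1.1- to CD44+ NK1.1+ cells (SE 0.10, adjusted p = 0.0102).

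Rps27l, a paralog of Rps27 known as a target of p53, stood at 43.5 and 57.7 CPM in WT and 52.9 and 64.1 CPM in Ezh2-KO CD44+ NK1.1- cells. It stood at 33.9 CPM in WT and 39.8 CPM in Ezh2-KO CD44+ NK1.1+ cells, and at 67.6 and 62.4 CPM in CD44- NK1.1- cells. The CD44+ NK1.1+ libraries were the lowest of the 8, and the Ezh2-KO CD44- NK1.1- value lay within the range of the Ezh2-KO CD44+ NK1.1- replicates. The fall was 0.57 from CD44+ NK1.1- to CD44+ NK1.1+ cells (SE 0.15, adjusted p = 0.0336) and 0.82 on the log2 scale from CD44- NK1.1- cells (SE 0.17, adjusted p = 0.0156). Its parent Rps27, and the retrogene Rps27rt, had values above 0 from CD44+ NK1.1- to CD44+ NK1.1+ cells, 0.56 (adjusted p = 0.226) and 0.40 (adjusted p = 0.0841), and neither passed.

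Between CD44+ NK1.1+ and CD44- NK1.1- cells, the ends of the series, 10 of 86 members passed and all 10 were lower. Over all genes 32.2% passed, and 16.2% passed and were lower, so the members' share was below the background. Among them Rpl39l (-1.11), Rps27l (-0.82), Rps26 (-0.55), Rpl31 (-0.45), Rpl4 (-0.45), Rps25 (-0.45), Rpl14 (-0.39), Rpl29 (-0.36) and Rplp0 (-0.36) fell, with adjusted p between 0.0102 and 0.0342. Of these, Rpl39l averages -0.16 in WT and -2.06 in Ezh2-KO cells. The 10 comprise 5 large subunit genes, 3 small subunit genes and 2 paralogs. Of the 8 with a promoter entry, 4 have a pyrimidine run at an annotated start. The members' median was -0.11, against -0.01 over all genes, with 63 below and 23 above 0. At an unadjusted p under 0.05 there were 17 of 86 members, beside 6239 of 13794 genes tested. With library sizes alone all genes had a median of -0.16 and the members had a median of -0.25. There, 25 of 86 members passed, all lower, and 36.1% of all genes passed. The count was 37 (34 lower) without either WT CD44+ NK1.1- replicate, when 63.1% and 62.9% of all genes passed, and 3 without either Ezh2-KO replicate (15.7% and 15.9%), though these libraries enter this comparison only through the estimate of spread.

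**Figure D5:**
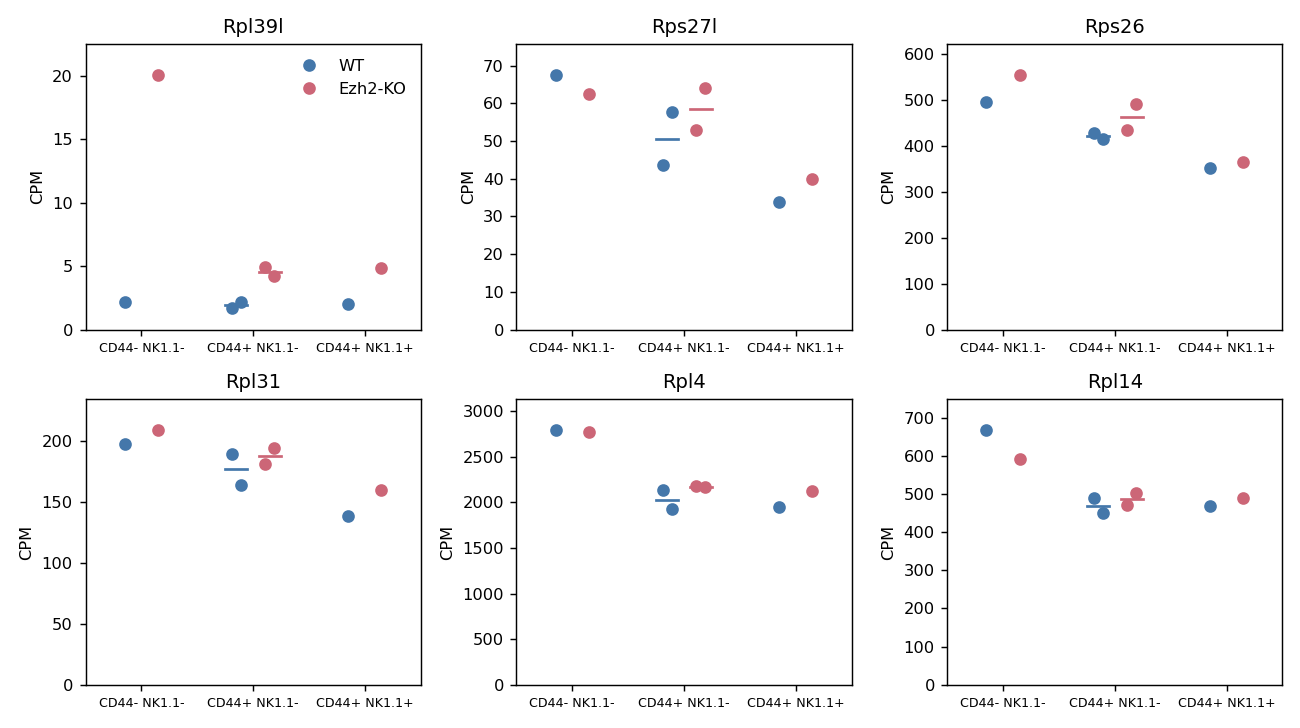
CPM of 6 called members by subset (each axis starts at 0); points are libraries and bars mark means of 2 replicates. Rpl39l is at 20.1 CPM in the Ezh2-KO CD44- NK1.1- library and at or below 4.96 CPM elsewhere; the CD44+ NK1.1+ library is the lowest of its genotype for Rps27l, Rps26 and Rpl31.

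Rpl31, which lies near the exit of the tunnel for the new peptide, stood at 197 and 209 CPM in CD44- NK1.1- and at 138 and 160 CPM in CD44+ NK1.1+ cells, with 164 to 194 CPM in CD44+ NK1.1- cells. In each genotype the CD44+ NK1.1+ library was thus the lowest. In RefSeq the ends of Rpl31 and Tbc1d8 overlap, as do those of Rps25 and Ccdc84, and the sources used here do not give the strand setting of the counting.

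Rpl4, which lines the exit tunnel, stood apart earlier. It was at 2796 and 2771 CPM in WT and Ezh2-KO CD44- NK1.1- cells, at 1926 to 2180 CPM in the 4 CD44+ NK1.1- libraries and at 1953 and 2122 CPM in CD44+ NK1.1+ cells. Both later subsets overlapped and lay below the first. Rpl14 showed the same order of levels, 668 and 591 CPM, then 449 to 503 CPM, then 469 and 490 CPM. Rps25, which some viral internal ribosome entry sites need, stood at 345 and 355 CPM, then at 248 to 314 CPM and then at 244 and 271 CPM. Rpl29 stood at 335 and 334 CPM in CD44- NK1.1- cells, at 256 to 276 CPM in CD44+ NK1.1- cells and at 270 and 250 CPM in CD44+ NK1.1+ cells. Rplp0 stood at 2666 and 2815 CPM in CD44- NK1.1- cells and at 1994 and 2284 CPM in CD44+ NK1.1+ cells. Rpsa, at 3199 and 3235 CPM against 2417 and 2846 CPM, did not pass (-0.29, adjusted p = 0.0571), nor did Rplp1, at 2102 and 2232 CPM against 1612 and 1864 CPM (-0.32, adjusted p = 0.0705).

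Levels were lower in CD44+ NK1.1+ than in CD44- NK1.1- cells in both genotypes for 58 of 86 members (67.4%), against 41.8% of all genes. The CD44- NK1.1- library was the highest of its genotype in both genotypes for 36 members (41.9%), against 14.1% of all genes. Members with values above 0 between these subsets did not pass the test. They included Rps16 (0.24, adjusted p = 0.164), at 606 and 537 CPM in CD44- NK1.1- and 687 and 660 CPM in CD44+ NK1.1+ cells, and Rpl13a (0.14, adjusted p = 0.469).

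No member passed the tests of whether the genotype effect differed between subsets. For CD44+ NK1.1+ against CD44+ NK1.1- cells edgeR called 0 of 86 members, and 0% of all genes passed. At an unadjusted p under 0.05 there were 0 members, beside 519 of 13794 genes tested. For CD44- NK1.1- against CD44+ NK1.1- cells edgeR called 0 of 86 members, and 0.0217% of all genes passed. At an unadjusted p under 0.05 there was 1 member (Rpl39l), beside 648 of 13794 genes tested. DESeq2 and limma-voom called 0 members in both. Without WT CD44+ NK1.1- replicate 2 the counts were 2 and 10, and 19.1% and 22.2% of all genes passed.

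Genes around the ribosome were set beside the members. Between the end subsets 32.2% of all genes passed, and 16.2% passed and were lower. Of 37 genes of translation factors and of proteins tied to growth or nascent chains, 10 were lower and 1 higher, with a median of -0.22. They included Npm1 (-0.69, adjusted p = 0.00291), a nucleolar chaperone, Eif5a (-0.50, adjusted p = 0.0105) and the helicase Eif4a1 (-0.71, adjusted p = 0.0156), and Tpt1 was the higher one (0.44, adjusted p = 0.0359). Of 44 ribosome biogenesis genes, 22 were lower and 1 higher, with a median of -0.42, among them Wdr12 (-1.11, adjusted p = 0.00573), Gnl3 (-0.81, adjusted p = 0.00622) and Ncl (-0.57, adjusted p = 0.00996). Of 77 mitochondrial ribosomal protein genes, 16 were lower and 1 higher, with a median of -0.23, among them Mrpl52 (-0.85, adjusted p = 0.00230) and Mrps6 (-0.94, adjusted p = 0.00385). Between CD44+ NK1.1+ and CD44+ NK1.1- cells, 32.5% of all genes passed, and 16.1% passed and were lower. There, 16 biogenesis genes, 26 mitochondrial ribosomal protein genes and 8 genes of the translation list were lower, beside 2 of the cytosolic members. Differences between these lists and the members were not tested.

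Of 29 genes of growth signalling to the ribosome, 6 were higher and 5 lower between the end subsets, near the 32.2% of all genes that passed. The transcription factor gene Mycn was higher (2.98, adjusted p = 0.000811). Rptor, the mTORC1 subunit, was higher in CD44+ NK1.1+ cells (0.68, adjusted p = 0.00326), as was Rps6ka1 (0.68, adjusted p = 0.00324), and Rps6ka2 was lower (-2.04, adjusted p = 0.000504). Between Ezh2-KO and WT CD44+ NK1.1- cells 2 of the 29 passed, beside 4.94% of all genes. They were Rps6ka2 (1.35, adjusted p = 0.00701) and Rps6ka6 (3.38, adjusted p = 0.0366), both higher. By edgeR, 0 of the translation list, biogenesis genes and mitochondrial ribosomal protein genes passed. At an unadjusted p under 0.05 these lists held 1, 1 and 2 genes, beside 2853 of 13794 genes tested.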

How the data were processed

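The authors deposited raw read counts per gene, whole numbers, for 8 libraries. The submitters' processing notes name CASAVA, Subread 1.4.3-p1, featureCounts and the build mm10, without their roles. The annotation, the strand setting and the handling of reads that fit several places are not stated there. Each library was split over 4 lanes, per the series design text. The 8 single-library files equalled the series table. Gene length was taken from the deposited table, and symbols for 25275 of 27179 identifiers from RefSeq (GRCm38.p6).

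Depth was 20308745 to 22995090 counts, and a count of 0 allows up to 3 counts, which covers counting error only. In R 4.3.3, edgeR 4.0.16 (filterByExpr on 6 groups, TMM, glmQLFit with robust=TRUE, quasi-likelihood F test) was fitted over all genes with a mean for each group (2 residual degrees of freedom) or with genotype and subset added (4), with Benjamini-Hochberg adjustment over all genes. The groups with 1 library were assumed to vary like the replicated ones. A gene passed at an adjusted p under 0.05. Adjusted p-values are edgeR's unless another tool is named, SE is the log2 fold change over the square root of F, and p-values measure the spread between these libraries. Alternatives were DESeq2 1.42.0, limma-voom (limma 3.58.1), other scalings and filters, subsets of libraries and summed families, the last chosen after seeing the data. Simulated data were used only for the edgeR fit with a mean for each group, for the genotype comparison in CD44+ NK1.1- cells. Called members with the 6 largest changes in each direction, named paralog pairs, the stalk, Rpsa and the extremes of level are given in every library; a few genes that these rules or lists take are not reported here. Other genes and windows were named after their values were seen, and the members and lists were chosen with earlier results of these data known.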

Additional observations from a re-analysis of the deposited data

How the results depend on the processing

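With library-size scaling the median of all genes moved from 0.00 to -0.13 between CD44+ NK1.1+ and CD44+ NK1.1- cells. Between CD44+ NK1.1+ and CD44- NK1.1- cells it moved from -0.01 to -0.16. The members' medians moved there too, to -0.10 and -0.25, by more than the replicate spread (0.13 on the log2 scale). That spread is as large as the medians: with single libraries left out they ran from 0.01 to 0.23 for genotype in CD44+ NK1.1- cells, from 0.06 to 0.15 for genotype over all subsets, from -0.18 to -0.08 between CD44+ NK1.1- and CD44- NK1.1- cells and from -0.02 to 0.07 between CD44+ NK1.1+ and CD44+ NK1.1- cells. Counts of members called moved further. Genotype in CD44+ NK1.1- cells gave 0 with DESeq2 and 0 to 46 when single replicates were left out. Genotype over all subsets gave 6 with library sizes, 5 with DESeq2, 2 with limma-voom and 0 to 17 with single libraries left out. CD44+ NK1.1- against CD44- NK1.1- cells gave 2 with no filter, 3 with DESeq2, 0 in WT libraries only and 0 to 56 with single replicates left out. CD44+ NK1.1+ against CD44+ NK1.1- cells gave 10 with library sizes, 5 with DESeq2, 0 in WT only, 0 in Ezh2-KO only and 0 to 39 with single replicates left out. CD44+ NK1.1+ against CD44- NK1.1- cells gave 25 with library sizes, 1 in WT only, 2 in Ezh2-KO only and 3 to 37 with single replicates left out. The tests of a difference in genotype effect gave 0 to 2 and 0 to 10 with single replicates left out. The share of all genes that passed also differed between settings. For genotype over all subsets it was 11.1% with library sizes, against 11.3% in the main fit. Between CD44+ NK1.1- and CD44- NK1.1- cells it was 2.62% with no filter and 1.92% in WT libraries only. Between CD44+ NK1.1+ and CD44- NK1.1- cells it was 36.1% with library sizes, 14.9% in WT only and 15.4% in Ezh2-KO only. Other shares are given with the results above. The cause of these changes was not tested. None of the called members reversed under the alternatives run for them. Leaving out the 5 members with the most counts lowered the share of counts to between 2.78% and 3.69%. No paired analysis was possible because the labels carry no replicate numbers. At these depths Rpl39, Rpl10l and Rpl3l were too low to compare.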
